A study of Mus musculus with 17 samples.

Results

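Forestomach RNA of mice given 50 mg/kg benzo(a)pyrene per day was compared with that of mice given 25 mg/kg per day, so both sides were exposed. The comparison used the 8 arrays whose titles name these doses, 4 at 50 mg/kg (replicates 12 to 15) and 4 at 25 mg/kg (replicates 6 to 9), of 17 arrays in all. The remaining arrays were 4 at 75 mg/kg and 5 olive oil controls. They did not enter the difference, but all 17 arrays shared the fit that gave its standard error. All animals of every group were male MutaTMMouse, a transgenic mutation reporter strain. They were aged 24 to 26 weeks at the time of treatment. The compound was dissolved in olive oil and given by gavage for 28 days, with sampling 72 hours after dosing ended, so the values describe tissue some days after exposure ended. Each array carried the forestomach RNA of 1 animal in Cy5 and a reference RNA pooled from 11 mouse cell lines in Cy3. Levels are log2 of Cy5 over Cy3, which set a gene against the same gene in the reference and cannot be compared between genes. Differences are means at 50 mg/kg minus means at 25 mg/kg, with the standard error of the fit after ± and n = 4 per dose.

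Benzo(a)pyrene is a polycyclic aromatic hydrocarbon that binds the aryl hydrocarbon receptor (AHR), which turns on the cytochrome P450 enzymes of the CYP1 family. These enzymes turn the compound into diol epoxides that bind DNA as bulky adducts, and the damage is repaired by nucleotide excision, tolerated by bypass polymerases, or answered through p53. The forestomach is the squamous-lined part of the rodent stomach and a known target of tumours when the compound is given by mouth to mice. Its wall also holds smooth muscle with enteric nerves, and it borders the glandular stomach, so a bulk sample mixes these tissues. A lower level of a cell type's genes in such a sample may mean fewer of those cells or less RNA per cell, and these cannot be told apart here.

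The squamous identity of the tissue was plain on all 8 arrays: all 11 measured basal keratinocyte markers and all 23 measured markers of the suprabasal and cornified layers were well above background on each. The arrays differed in the other tissues they held. Replicate 7 (25 mg/kg) carried 13 of the 15 glandular stomach markers on the array well above background, replicate 9 (25 mg/kg) 14, replicate 15 (50 mg/kg) 13, and the other arrays between 5 and 8. Averaged over that list, replicate 7 stood 3.28 log2 units above the mean of the 8 arrays. Replicate 6 (25 mg/kg) stood 1.57 above it for adipocyte genes. Between 43.4% and 48.6% of spots were well above background in Cy5 on the 8 arrays. The arrays lay on 3 slides: slide 1 held replicates 6, 7 and 12, slide 2 held 8, 13 and 14, and slide 3 held 9 and 15. Every array at 25 mg/kg lay in column 2 of its slide and every array at 50 mg/kg in column 3, so column and dose cannot be told apart.

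No gene passed the test between 50 and 25 mg/kg after correction for the number of genes tested. Of 21384 genes, 0 passed limma with Benjamini-Hochberg adjustment at 0.05 (percent called 0 in either direction), and the smallest adjusted p was 0.9998. At an unadjusted p under 0.05 there were 482 genes, or 2.25% of those tested, of which 213 (0.996%) had a higher mean at 50 mg/kg and 269 (1.26%) a lower one. This split depended on the scaling: it was 28 higher and 144 lower with median centring, 327 and 240 from the scanner's own processed signals, and 249 and 198 in the authors' deposited series table. The 4 arrays of each dose did not overlap for 423 genes (1.98%), 196 with 50 mg/kg above (0.917%) and 227 with 50 mg/kg below (1.06%). At least a 1.5-fold difference of means was seen for 83 genes upward (0.388%) and 183 downward (0.856%), and at least a 2-fold difference for 11 (0.0514%) and 71 (0.332%). The difference was positive for 45.4% of all genes and negative for 54.6%. It kept a positive sign within all 3 slides for 9.62% of genes and a negative one for 9.76%. With slide as a fixed block, 817 genes (3.82%) had an unadjusted p under 0.05 and 0 passed. The 95% interval of the difference was 0.29 log2 units on either side of the estimate for the median gene. It lay within 1 log2 unit of no difference, that is within 2-fold either way, for 20530 genes (96.0%). Every gene named below is therefore described by its values and none is called as changed. Some were named because their arrays did not overlap between the doses, so the lack of overlap is no added result for them. Upward these were Chil4, Dusp13, Krt16, S100a8, Gm21944, Lilra6 and Bcl2a1d. Downward they were Grp, Syt1, Fgf1, Chgb, Saa2, Saa1, Pon1, Hp, Rgn, Itih4, Fgg and Rbp4. Counts at a p under 0.05 refer to the unadjusted two-sided limma p.

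**Figure D1:**
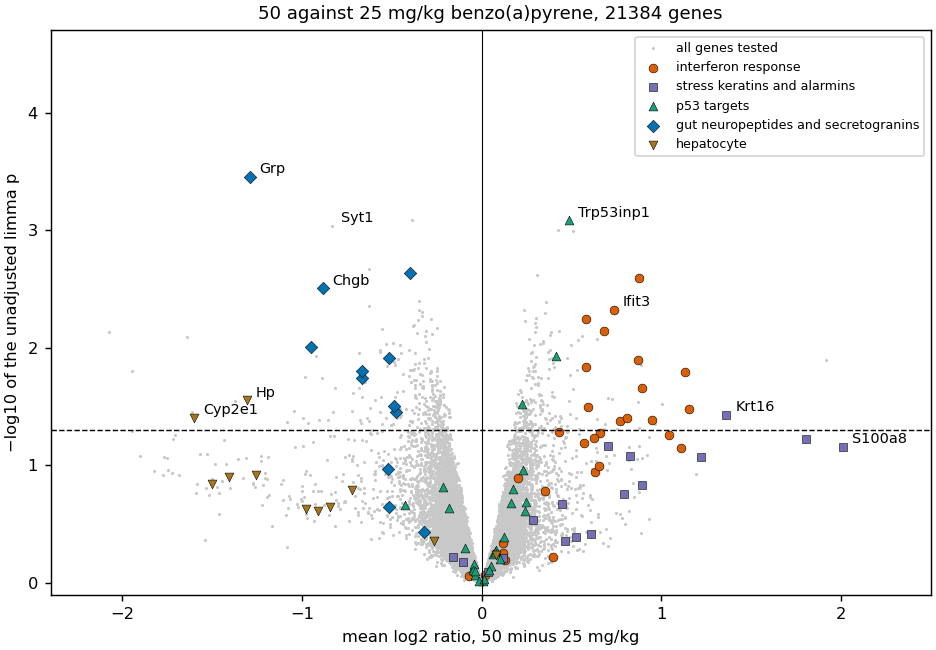
Mean log2 ratio at 50 minus 25 mg/kg (horizontal axis) against −log10 of the unadjusted limma p (vertical axis) for 21384 genes, with 5 gene lists coloured; the dashed line marks the unadjusted threshold of 0.05. Interferon genes lie to the right and gut neuropeptide genes to the left, while 0 genes passed the adjusted threshold.

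The genes that had moved by the top dose leaned the same way between the lower doses. Against control, 191 genes were higher at 75 mg/kg (0.893% of genes tested) and 45 lower (0.21%) at an adjusted limma p under 0.05, while 3 genes (0.014%) differed from control at 25 mg/kg and 10 (0.0468%) at 50 mg/kg. That contrast shares no array with 50 against 25 mg/kg, but it shares the slides, and controls lay in column 1 and 75 mg/kg in column 4 of each, so both contrasts run along the same order of columns and dose and column cannot be told apart in either. Of the 191 higher genes, 171 had a positive difference between 50 and 25 mg/kg, with a median of 0.32, where 45.4% of all genes were positive and the median of all was -0.01. Of the 45 lower genes, 39 had a negative difference, with a median of -0.25. The 4 arrays of each dose did not overlap for 18 of the 191 (all higher at 50 mg/kg, where 0.917% of all genes were) and for 7 of the 45 (all lower, where 1.06% were). With slide as a block the medians were 0.33 and -0.27. Within slides 1, 2 and 3 they were 0.56, 0.17 and 0.02 for the higher genes and -0.40, -0.12 and -0.11 for the lower. On slide 3 the higher genes were thus close to the median of all genes there (-0.01). When control replicate 5 was left out of the choice of genes, the medians were 0.19 and -0.13. Over all 21384 genes the 2 differences had a Pearson correlation of 0.356, and genes are not independent replicates.

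**Figure D2:**
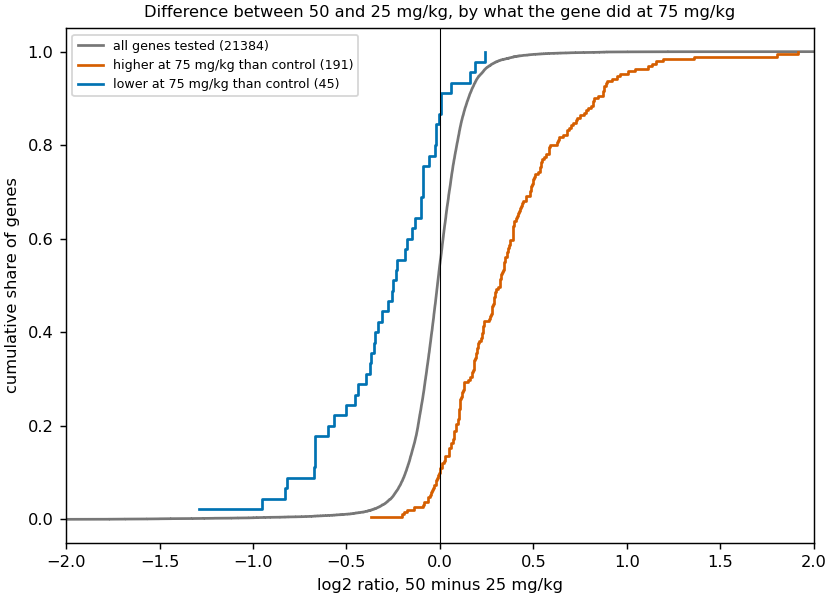
Cumulative share of genes (vertical axis) by their log2 difference between 50 and 25 mg/kg (horizontal axis), for all 21384 genes, the 191 higher and the 45 lower at 75 mg/kg than in controls. The curve of the 191 lies to the right of that of all genes and the curve of the 45 to the left.

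Genes of the AHR battery were mostly slightly lower at 50 mg/kg, and none passed the test (0 of 14). The list holds the receptor and its partner besides genes that respond to the receptor. Of 14 measured members, 3 had a positive difference, the median was -0.14, and 0 had arrays that did not overlap. Cyp1a1, the enzyme that begins the activation of benzo(a)pyrene, read 0.17, 0.68, 0.51 and 0.51 on the arrays of replicates 6 to 9 at 25 mg/kg and 0.11, 0.26, 0.02 and 0.32 on those of replicates 12 to 15 at 50 mg/kg. These readings sat at the floor of the measurement: Cyp1a1 was well above background on 1 array at 25 mg/kg and on 0 at 50 mg/kg, and the groups overlapped. Cyp1b1, a related P450, differed by -0.17 ± 0.21, and Ahrr, the receptor's repressor, by -0.20 ± 0.19. Tiparp, another feedback inhibitor of the receptor, differed by -0.14 ± 0.13 (95% interval -0.41 to 0.14), and by 0.03 on a second probe. Nqo1, a quinone reductase, differed by -0.21 ± 0.14 (95% interval -0.50 to 0.08). Neither of these intervals reaches a 1.5-fold increase. The most positive members were Gsta2, a glutathione transferase, at 0.39 ± 0.25, and Arnt, the receptor's partner, at 0.30 ± 0.12, although a second Arnt probe gave -0.05. Selenbp1, a selenium-binding protein, was the most negative at -0.29 ± 0.17.

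Other enzymes that handle benzo(a)pyrene or its quinones were mostly lower at 50 mg/kg: 11 of 13 had a negative difference, with a median of -0.25. Por, the reductase that supplies electrons to the P450 enzymes, read 0.72, 0.69, 0.81 and 0.95 at 25 mg/kg and 0.47, 0.57, 0.53 and 0.61 at 50 mg/kg. It was the one member of the 13 whose groups did not overlap (-0.25 ± 0.11), which 1.06% of all genes did in that direction. It is named here after its values were seen. Ugt2b34, a glucuronosyltransferase, had the largest negative difference at -0.60 ± 0.36, while Nat2, an acetyltransferase, stood at 0.14 ± 0.13 and Cyp3a13 at 0.03 ± 0.38. The list mean of replicate 15 was 0.20, against -0.23 to -0.20 on the other arrays at 50 mg/kg. Of 22 measured NRF2 and glutathione genes, which answer electrophiles and oxidants, 18 were negative, with a median of -0.08, and 0 had a p under 0.05. Gsta3 stood at -0.37 ± 0.23, Gsr at -0.19 ± 0.17, Hmox1 at 0.14 ± 0.21 and Gstm2 at 0.13 ± 0.11, with other Gstm2 probes at or below -0.0048. The transferase Gsta1 differed by -0.02 ± 0.31 and the cystine carrier Slc7a11 by 0.12 ± 0.24, both less than their standard errors.

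Among p53 targets, Trp53inp1, Pmaip1 and Bax had no overlap between the doses. The list as a whole was close to the background, with 17 of 27 measured members positive and a median of 0.05, or -0.02 with median centring. Trp53inp1, a p53-induced protein of the cell death response, read -0.04, -0.19, -0.15 and -0.24 at 25 mg/kg and 0.51, 0.26, 0.30 and 0.26 at 50 mg/kg. Its difference was 0.49 ± 0.12 (95% interval 0.23 to 0.74), or 1.40-fold, and it was 0.62, 0.43 and 0.50 within slides 1, 2 and 3. A second probe of Trp53inp1 did not share this, with a difference of -0.03. Over the 8 arrays, genes strongly correlated with the first probe included Nradd (r = 0.972) and Cks1brt (0.939). Pmaip1, the BH3 protein Noxa, read -1.72, -1.43, -1.67 and -1.80 at 25 mg/kg and -1.16, -1.28, -1.12 and -1.41 at 50 mg/kg, a difference of 0.41 ± 0.15 (95% interval 0.10 to 0.72), and 0.42, 0.47 and 0.38 within the slides. Bax, which permeabilizes the outer mitochondrial membrane, differed by 0.23 ± 0.10, with no overlap between the doses. For all 3 genes each of the 4 arrays at 50 mg/kg was higher than each at 25 mg/kg, where 0.917% of all genes were, and the means at 75 mg/kg were 0.44, -0.94 and -0.54 against -0.38, -1.99 and -0.93 in controls.

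The arrest gene Cdkn1a (p21) differed by 0.01 ± 0.20, with a 95% interval of -0.42 to 0.44. Mdm2, the ubiquitin ligase that limits p53, differed by 0.12 ± 0.15, Ccng1 by 0.24 ± 0.20, Bbc3 (Puma) by 0.05 ± 0.13 and the nuclease gene Aen by -0.04 ± 0.11. Sesn2 and Gadd45a, stress genes with other inputs besides p53, were the most negative members at -0.43 ± 0.33 and -0.22 ± 0.14. Genes for the repair or bypass of bulky adducts lay around no difference: 9 of 20 were positive, the median was -0.03 (0.05 with Agilent's processed signals), and no member had a p under 0.05 (0 of 20). Xpc, which recognises damage in nucleotide excision repair, differed by -0.09 ± 0.11. The ends of that list were Ercc5 at -0.24 ± 0.17, Ercc1 at -0.13 ± 0.17, Rad23b at 0.17 ± 0.13 and Ercc6 at 0.16 ± 0.11, the last well above background on 0 arrays at 25 mg/kg and 2 at 50 mg/kg.

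Interferon-induced genes were higher at 50 mg/kg on 3 of its 4 arrays. Of 29 measured members, 28 had a positive difference, with a median of 0.63, and 13 had a p under 0.05 in the upward direction, where 0.996% of all genes did. Relative to the mean of the 8 arrays, the list stood at -0.24, -0.69, -0.12 and -0.16 on replicates 6 to 9 and at 0.54, 0.89, 0.23 and -0.44 on replicates 12 to 15. Replicate 15 was thus below 3 of the 4 arrays at 25 mg/kg, and the medians within slides 1, 2 and 3 were 1.08, 0.64 and -0.21. A single member of the 29, the RNA sensor Ifih1, had no overlap (0.58 ± 0.18), which 0.917% of all genes had in that direction. It is named after its values were seen. Replicate 13, the highest array for the interferon list, was also the highest for B cell markers. Its B cell list stood 0.88 above the mean of the 8 arrays while the other 7 lay between -0.34 and 0.20. Replicate 12, at 0.54 for the interferon list, stood at -0.20 for the B cell list. Between the doses, 5 of 7 measured B cell members were positive and 2 negative. Of 10 B cell and plasma cell markers on the array, 8 were well above background on replicate 13, and 6 to 8 on the others. T and NK cell markers stood at 0.06 on replicate 12, 0.51 on replicate 13 and -0.27 on replicate 15, with 8 of 9 measured members positive between the doses. Macrophage and dendritic cell markers were positive for 9 of 11, and red blood cell genes stood at 0.92 on replicate 13. The part of these cells in the interferon values was not tested. Leaving out any 1 of the 17 arrays kept the list median between 0.48 and 0.85.

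Many interferon genes carry an interferon-stimulated response element near their start. The core letters GAAANNGAAA, searched on both strands with overlapping matches counted, were found in the 250 bases before the start of 14 of the 24 measured members that the RefSeq promoter table (GRCm38.p6) holds. Of all genes with an entry, 3.46% have them, and of those tested here 3.18%. Of the 11 members with a p under 0.05 and a promoter in the table, 8 have a match, and of the other 13, 6 have. The windows of the 4 genes described next are shown, 5′ to 3′ in the direction of the gene, to set the letters beside their values, and capitals mark the matches. Their positions are chr19:34583279-34583528 on the plus strand for Ifit3, and on the minus strand chr5:120907526-120907775 for Oas1a, chr4:156200819-156201068 for Isg15 and chr5:92348890-92349139 for Cxcl10. The letters describe the window and say nothing of what bound it.
Ifit3: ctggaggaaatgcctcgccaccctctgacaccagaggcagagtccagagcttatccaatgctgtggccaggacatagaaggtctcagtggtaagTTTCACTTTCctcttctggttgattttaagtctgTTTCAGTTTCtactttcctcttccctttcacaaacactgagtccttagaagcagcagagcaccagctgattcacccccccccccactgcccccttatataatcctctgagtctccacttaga
Oas1a: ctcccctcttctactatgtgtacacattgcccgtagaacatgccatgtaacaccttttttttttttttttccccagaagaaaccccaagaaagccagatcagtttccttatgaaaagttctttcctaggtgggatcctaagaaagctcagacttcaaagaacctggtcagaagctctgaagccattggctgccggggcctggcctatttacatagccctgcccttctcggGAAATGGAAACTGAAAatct
Isg15: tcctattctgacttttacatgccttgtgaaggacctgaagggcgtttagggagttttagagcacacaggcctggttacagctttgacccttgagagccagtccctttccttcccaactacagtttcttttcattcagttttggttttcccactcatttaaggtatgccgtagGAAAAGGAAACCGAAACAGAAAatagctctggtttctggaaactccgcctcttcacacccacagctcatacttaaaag
Cxcl10: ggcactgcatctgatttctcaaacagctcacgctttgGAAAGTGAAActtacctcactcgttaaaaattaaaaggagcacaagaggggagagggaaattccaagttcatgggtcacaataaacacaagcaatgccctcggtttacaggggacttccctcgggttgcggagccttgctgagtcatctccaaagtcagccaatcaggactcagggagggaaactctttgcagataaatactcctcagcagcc

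Isg15, a ubiquitin-like protein with 3 overlapping matches, read -1.06, -1.52, 0.12 and 0.18 at 25 mg/kg and 1.10, 1.22, 0.59 and -0.56 at 50 mg/kg. Its difference was 1.15 ± 0.50 (95% interval 0.10 to 2.20), or 2.23-fold, and the groups overlapped through replicate 15. Oas1a, a 2′-5′ oligoadenylate synthetase with 2 overlapping matches, read -2.65, -2.54, -0.88 and -1.73, then -0.29, -0.45, -0.60 and -1.92, a difference of 1.13 ± 0.42. Ifit3, which binds viral RNA together with its relatives and has 2 separate matches on the opposite strand, differed by 0.73 ± 0.23 (95% interval 0.26 to 1.21), and by 0.86, 0.97 and -0.10 within the slides. The chemokine Cxcl10, with 1 match, differed by 0.95 ± 0.43. Oasl1 was the one negative member, at -0.07 ± 0.42. Over the 8 arrays the genes most correlated with Ifit3 were Ptprj (r = 0.949), Cxcr3 (0.943) and Ube2l6 (0.942).

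Genes of antigen processing followed the same arrays. All 18 measured members had a positive difference, with a median of 0.41, and 3 had a p under 0.05, where 0.996% of all genes did in that direction. Psmb9, an immunoproteasome subunit, differed by 0.97 ± 0.44 and its partner Psmb8 by 0.69 ± 0.38. The class I heavy chain H2-K1 differed by 0.56 ± 0.33 and its light chain B2m by 0.55 ± 0.36. The list mean of replicate 15, -0.40, was again below those of replicates 6, 8 and 9 (-0.18, -0.09 and 0.05). The median was -0.37 within slide 3 and 0.73 and 0.52 within slides 1 and 2. The inflammation list was positive for all 10 measured members, of 23 listed, with a median of 0.40. The median was 0.20 without replicate 13 and 0.64 without replicate 15. The other listed genes, among them Il1b, Il6, Tnf and Cxcl1, did not pass the background filter and have no value here. Ccl8, a chemokine that attracts monocytes, read 4.16, 2.11, 4.08 and 3.61 at 25 mg/kg and 4.87, 4.63, 4.89 and 3.59 at 50 mg/kg, a difference of 1.01 ± 0.42. Chil4, a chitinase-like secreted protein, read 0.43, 0.30, 0.80 and 0.46 at 25 mg/kg, where it was well above background on 1 array, and 4.32, 2.92, 1.00 and 1.42 at 50 mg/kg, where it was on all 4. The Chil4 groups did not overlap (1.92 ± 0.69), and the difference was 3.96, 1.16 and 0.95 within the slides. Cd207, the Langerhans cell lectin, differed by 0.18 ± 0.24.

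Keratins and alarmins of stressed squamous epithelium were higher at 50 mg/kg through a single animal more than through the group. The list's mean stood at -0.31, -0.39, -0.19 and -0.50 on the arrays at 25 mg/kg, and at 1.47 on replicate 12 but -0.13, -0.27 and 0.32 on replicates 13 to 15. Of 17 measured members 15 were positive, with a median of 0.61, which was 0.19 without replicate 12. Krt16, a keratin of wounded and hyperproliferative epithelium, read 2.43, 2.35, 2.31 and 2.61 at 25 mg/kg and 5.79, 2.67, 2.99 and 3.71 at 50 mg/kg. The 2 groups did not overlap, and the difference was 1.36 ± 0.60 (95% interval 0.09 to 2.63), or 2.57-fold, and 3.40, 0.52 and 1.10 within the slides. The calcium-binding alarmin S100a8 read -2.07, -2.04, -1.78 and -1.72, then 2.38, 0.44, -1.41 and -0.96, a difference of 2.01 ± 1.04 without overlap. It was well above background on 2 arrays at 25 mg/kg and 4 at 50 mg/kg. The S100a8 mean at 25 mg/kg (-1.90) lay below that of controls (-1.02, SD 1.95), and the mean at 50 mg/kg was 0.11. Stfa1, a cysteine protease inhibitor of the stefin A cluster, read 1.35, 1.80, 1.97 and 1.89 at 25 mg/kg, and 6.90 on replicate 12 against 1.76, 2.04 and 3.53 on the other arrays at 50 mg/kg. Its difference of 1.81 ± 0.90 spanned -0.09 to 3.70 in its 95% interval.

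All 6 measured stefin A genes were positive, with a median of 0.81 that became 0.39 without replicate 12; these genes are close copies and their probes may share transcripts. Stfa2 differed by 0.79 ± 0.56, Stfa2l1 by 0.82 ± 0.45 and Stfa3 by 1.22 ± 0.67, and replicate 8 at 25 mg/kg had the highest Stfa3 of the 8 arrays, 5.20. Krt6a stood at 0.89 ± 0.59, Krt6b at 0.52 ± 0.61 and Krt17 at 0.46 ± 0.59, each highest on replicate 12 (3.75, 8.08 and 4.58). The defensin Defb3 was well above background on 0 arrays at 25 mg/kg and 2 at 50 mg/kg, and its difference of 0.45 ± 0.34 was 0.19 without replicate 12. Il1f6 at -0.16 ± 0.30 and Il1rn at -0.10 ± 0.24 were the negative members. In the Sprr family of cornified envelope proteins, 10 of 13 were positive, with Sprr1b at 0.88 ± 0.61, Sprr2f at 0.84 ± 0.55, Sprr1a at -0.10 ± 0.17 and Sprr3 at -0.14 ± 0.20. The Sprr median of 0.20 was 0.07, 0.13 and 0.02 without replicates 7, 12 and 15, and 0.35, 0.33 and 0.35 without replicates 6, 13 and 14.

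Keratinocyte layer markers gave no such shift. Krt5 and Krt14, the basal pair, differed by -0.02 ± 0.14 and -0.10 ± 0.20, and Krt4 and Krt13, the suprabasal pair of this tissue, by -0.05 ± 0.28 and -0.21 ± 0.27. Second probes of Krt5 and Krt13 gave -0.31 and -0.17. Of 11 basal markers 3 were positive, with a median of -0.12, and the ends of the list were Itgb4 at -0.32 ± 0.16, Dst at -0.22 ± 0.17, Krt15 at 0.15 ± 0.21 and Col17a1 at 0.10 ± 0.27. Without replicates 6, 7, 14 and 15 in turn the basal median was -0.05, -0.04, -0.06 and -0.01. Of 23 suprabasal and cornified markers 5 were positive, with a median of -0.10 that lay between -0.20 (without replicate 8) and -0.06 (without replicate 6 or 7), and at 0.04 in Cy5 alone. Ivl (involucrin), the most negative, stood at -0.47 ± 0.27 and Krt1 at -0.25 ± 0.39. The most positive was Sprr1b, also a member of this list, at 0.88 ± 0.61, followed by Dsg1a at 0.07 ± 0.34. The EGF-family ligands Areg and Ereg differed by -0.44 ± 0.41 and 0.01 ± 0.28.

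Proliferation genes were slightly higher at 50 mg/kg. Of 24 measured members 23 were positive, but the median was only 0.17, and 1 had a p under 0.05 (0.996% of all genes in that direction). Kif20a, a mitotic kinesin, read -2.49, -2.44, -2.69 and -2.83 at 25 mg/kg and -2.10, -2.29, -2.31 and -2.14 at 50 mg/kg, a difference of 0.40 ± 0.19. Top2a (topoisomerase II alpha) at 0.32 ± 0.22 and Ube2c at 0.37 ± 0.29 also had no overlap between the doses, which 0.917% of all genes had in that direction. Mki67, the standard proliferation marker, differed by 0.19 ± 0.40, and Mcm6 at -0.13 ± 0.27 was the one negative member. The median was 0.11 without replicate 8, the array with the lowest list mean (-0.27), 0.25 without replicate 7, and 0.17, 0.28 and 0.34 within the slides.

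**Figure D3:**
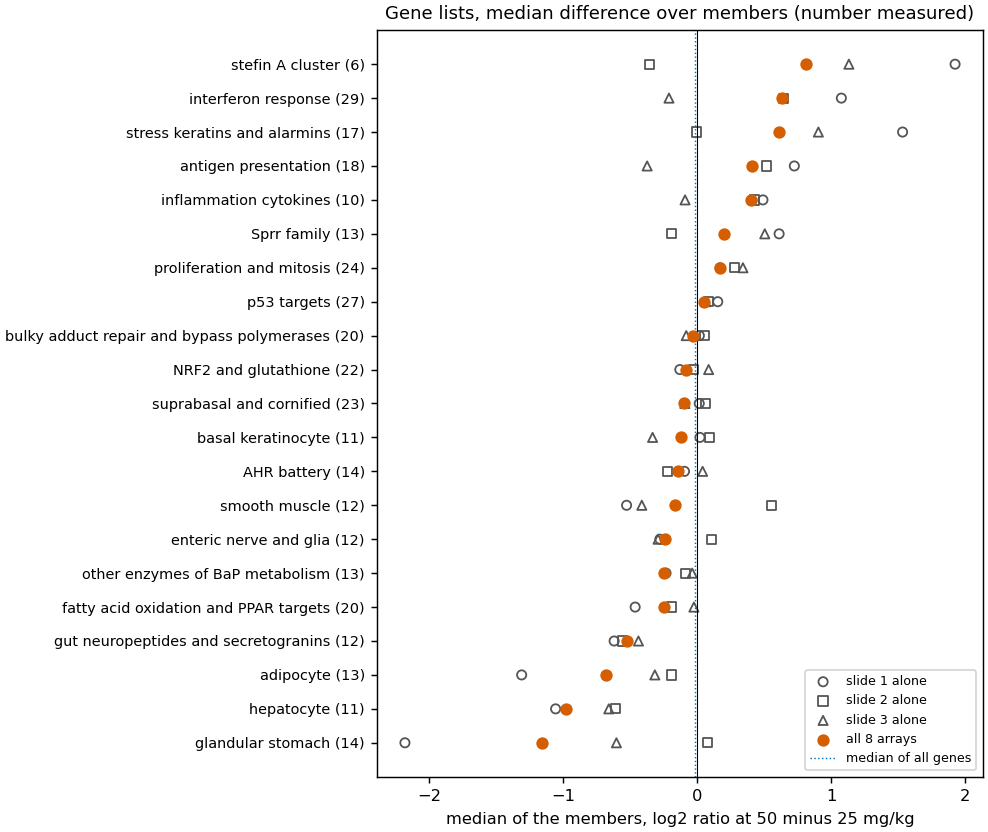
Median log2 difference over the measured members of 21 gene lists (vertical axis, number measured in parentheses), from all 8 arrays (filled) and within each slide (open symbols). The interferon list is at 0.63 over the 8 arrays but -0.21 on slide 3, and the gut neuropeptide list lies between -0.62 and -0.44 on the 3 slides.

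Gut neuropeptides and secretogranins were lower at 50 mg/kg across the list and on each slide. All 12 measured members had a negative difference, with a median of -0.52, and 9 had a p under 0.05, where 1.26% of all genes did in that direction. Within slides 1, 2 and 3 the median was -0.62, -0.56 and -0.44. The list mean stood at 0.15, 0.57, -0.01 and 0.58 on replicates 6 to 9 and at -0.31, -0.55, -0.56 and 0.14 on replicates 12 to 15, so replicate 15 lay within the range of the lower dose. Leaving out any 1 array kept the median between -0.76 and -0.45. The highest list means of their doses were those of replicates 7 and 9 at 25 mg/kg and replicate 15 at 50 mg/kg. These arrays carried most glandular stomach markers, and Grp was also highest on them within each dose. The part of glandular or other neighbouring tissue in the values of this list, Grp included, was not tested.

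Grp, the gastrin-releasing peptide of enteric neurons, had the smallest p of all genes tested. It read 3.11, 4.00, 2.69 and 3.85 at 25 mg/kg and 2.20, 2.18, 1.78 and 2.33 at 50 mg/kg. Each array at 50 mg/kg was below each at 25 mg/kg, and the difference was -1.29 ± 0.29 (95% interval -1.90 to -0.68; limma, adjusted p = 0.9998), with the level at 50 mg/kg 0.41-fold that at 25 mg/kg. It was -1.35, -0.71 and -1.52 within the slides. Group means of Grp were 3.48 in controls, 3.41 at 25 mg/kg, 2.12 at 50 mg/kg and 1.34 at 75 mg/kg, so the mean at 25 mg/kg lay close to that of controls and the means at 50 and 75 mg/kg below both. Chgb, a secretogranin of dense-core vesicles, read 1.59, 2.55, 1.15 and 2.06, then 0.74, 1.09, 0.83 and 1.14, a difference of -0.88 ± 0.26 without overlap. Gal, the peptide galanin, was the third of the 12 without overlap (-0.40 ± 0.11), which 1.06% of all genes had in that direction. The peptide precursors Cartpt and Tac1 differed by -0.95 ± 0.33 and -0.67 ± 0.26, and Scg2 by -0.67 ± 0.25. The genes most correlated with Grp over the 8 arrays were Phox2a (r = 0.962), Chgb (0.959) and Krtap20-2 (0.955).

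General markers of enteric neurons and glia gave a smaller and less even difference. Of 12 measured, 10 were negative, with a median of -0.24, or -0.15, -0.14 and -0.15 without replicates 7, 14 and 9 and -0.36 without replicate 8. Syt1, the calcium sensor of synaptic vesicles, read 1.24, 2.16, 0.96 and 1.61 at 25 mg/kg and 0.49, 0.91, 0.40 and 0.85 at 50 mg/kg, a difference of -0.83 ± 0.21 (95% interval -1.27 to -0.39) without overlap. Vip differed by -0.52 ± 0.31, the neuronal RNA-binding protein Elavl4 by 0.01 ± 0.13 and the neuronal tubulin Tubb3 by 0.25 ± 0.16. Smooth muscle, in which these nerves lie, was negative for 11 of 12 genes with a median of -0.17, and its slide medians were -0.53, 0.55 and -0.41. Actg2 stood at -0.34 ± 0.30, Synm at -0.29 ± 0.27 and Synpo2, the one positive member, at 0.05 ± 0.25, while 2 other Synpo2 probes gave -0.45 and -0.29. The smooth muscle list ran from -0.52 (replicate 8) to 0.44 (replicate 7) on the arrays at 25 mg/kg and from -0.21 to 0.25 at 50 mg/kg. Its median was -0.02 without replicate 7, -0.39 without replicate 8, -0.27 without replicate 13 and 0.02 without replicates 7 and 12 together. The nerve and glia list had slide medians of -0.28, 0.11 and -0.29, so both lists were positive on slide 2, where Syt1 differed by -0.30. The part of muscle in the nerve values was not tested. Fgf1, an acidic fibroblast growth factor, also had no overlap (-0.63 ± 0.17), and its level at 50 mg/kg (2.77) was close to the control mean (2.85), below that at 25 mg/kg (3.40).

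**Figure D4:**
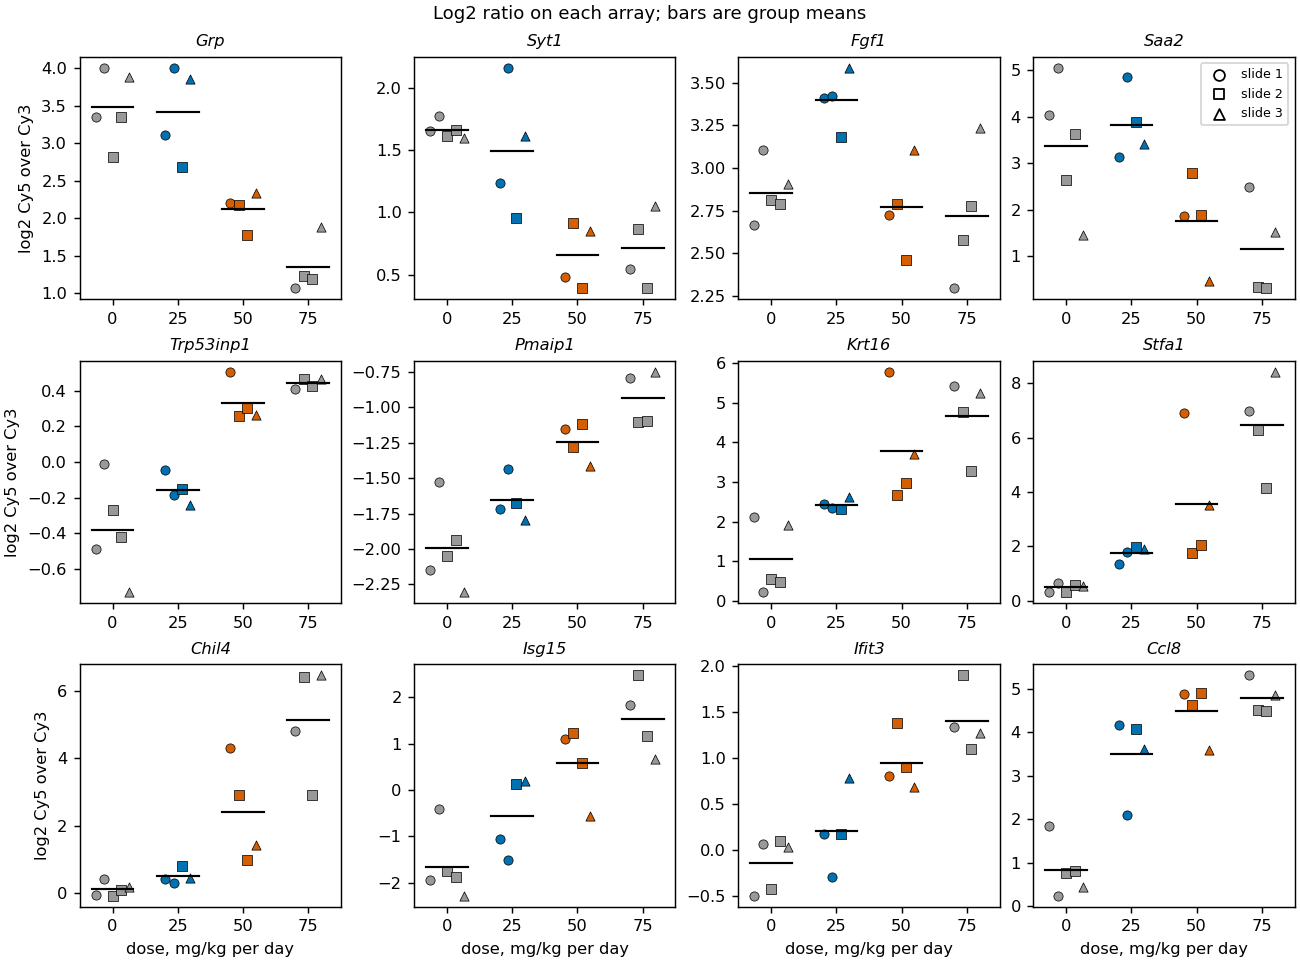
Log2 Cy5 over Cy3 of 12 genes on each of the 17 arrays (vertical axes) by dose (horizontal axes), with group means as bars and slide as symbol. Grp and Syt1 are lower at 50 than at 25 mg/kg on every array, Trp53inp1 and Pmaip1 higher, while Stfa1 at 50 mg/kg runs from 1.76 to 6.90.

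Liver-type and acute phase transcripts were lower at 50 mg/kg. Of the 8 arrays, replicate 7 had the highest hepatocyte list mean (1.57) and the highest glandular stomach mean. Replicates 9 and 15, which also carried most glandular markers, had hepatocyte means of 0.12 and -0.53. Control replicate 1 had a hepatocyte mean of 2.07 with a glandular mean of -1.13. Saa2 and Saa1, serum amyloid A proteins of the acute phase, are near-identical copies that their probes may not tell apart. Saa2 read 3.14, 4.84, 3.89 and 3.41 at 25 mg/kg and 1.87, 2.78, 1.88 and 0.47 at 50 mg/kg, without overlap. Its difference was -2.07 ± 0.68 (95% interval -3.51 to -0.64), the most negative of all genes tested, and -2.12, -1.56 and -2.95 within the slides. Saa1 differed by -1.64 ± 0.54, and the genes most correlated with Saa2 were Saa1 (r = 0.971), Ocrl (0.928) and Hoga1 (0.928). Haptoglobin (Hp) read 2.33, 2.64, 1.52 and 1.32, then 0.67, 0.93, 0.62 and 0.36, a difference of -1.31 ± 0.54. Pon1, a lactonase carried on lipoproteins, stood at -0.89 ± 0.34, with 2 of the 4 arrays at 50 mg/kg well above background.

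Of 11 measured hepatocyte markers 10 were negative, with a median of -0.98, which was -0.53 without replicate 7. That array had the highest Ttr (4.81), Rgn (3.68), Itih4 (4.12), Fgg (5.18) and Rbp4 (3.22) of the 8. These 5 genes did not overlap between the doses, which 1.06% of all genes did in that direction. For all but Ttr the lack of overlap was a condition for naming them. The differences of the 5 were -1.50 ± 0.98, -1.0 ± 0.51, -1.23 ± 0.67, -1.75 ± 0.96 and -1.42 ± 0.81. The part of glandular or other neighbouring tissue in these values was not tested. Cyp2e1 differed by -1.60 ± 0.72, and Fga at 0.08 ± 0.14 was the one positive member, on a probe well above background on 1 array at 25 mg/kg and 2 at 50 mg/kg, while its second probe gave -0.77. The glandular stomach list itself had a median of -1.16, or -0.15 without replicate 7 and -1.75 without replicate 6. Atp4b, a subunit of the parietal cell proton pump, read 6.53 on replicate 7 and 2.14 on replicate 9 against -0.11 to 0.76 on the other 6 arrays. Anxa10, the other leading member, stood at -1.90 ± 1.03, and Tff1 and Lipf at 0.06 ± 1.11 and 0.13 ± 0.09.

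Genes of fatty acid oxidation and PPAR targets were lower at 50 mg/kg by small amounts. Of 20 measured, 19 were negative, with a median of -0.25, and 4 had a p under 0.05, where 1.26% of all genes did in that direction. Angptl4, an inhibitor of lipoprotein lipase, read 1.13, 0.61, -0.79 and -0.13 at 25 mg/kg and -0.91, -0.20, -0.79 and -0.54 at 50 mg/kg, a difference of -0.82 ± 0.32. Its high values at 25 mg/kg were those of replicates 6 and 7, and the groups overlapped. Acadm, a mitochondrial dehydrogenase, stood at -0.15 ± 0.10 and Ppargc1a at 0.05 ± 0.25. Cpt1a, Plin2 and Ucp3 had no overlap, which 1.06% of all genes had in that direction, with differences of -0.24 ± 0.12, -0.37 ± 0.13 and -0.38 ± 0.18. Adipocyte genes were negative for all 13 measured, with a median of -0.68, or -0.44 without replicate 6. Their list mean was 1.57, -0.73, 0.12 and 0.61 at 25 mg/kg and -0.95, -0.94, 0.03 and 0.29 at 50 mg/kg, so both doses held arrays with and without them. Adipoq read 5.40, 0.13, 2.64 and 3.42, then -0.10, 0.05, 2.42 and 2.84, a difference of -1.59 ± 1.12, and Cidec, a lipid droplet protein, of -1.95 ± 0.93. The part of attached fat in the oxidation genes was not tested. The glycolytic enzyme Eno3 differed by -0.45 ± 0.15.

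**Figure D5:**
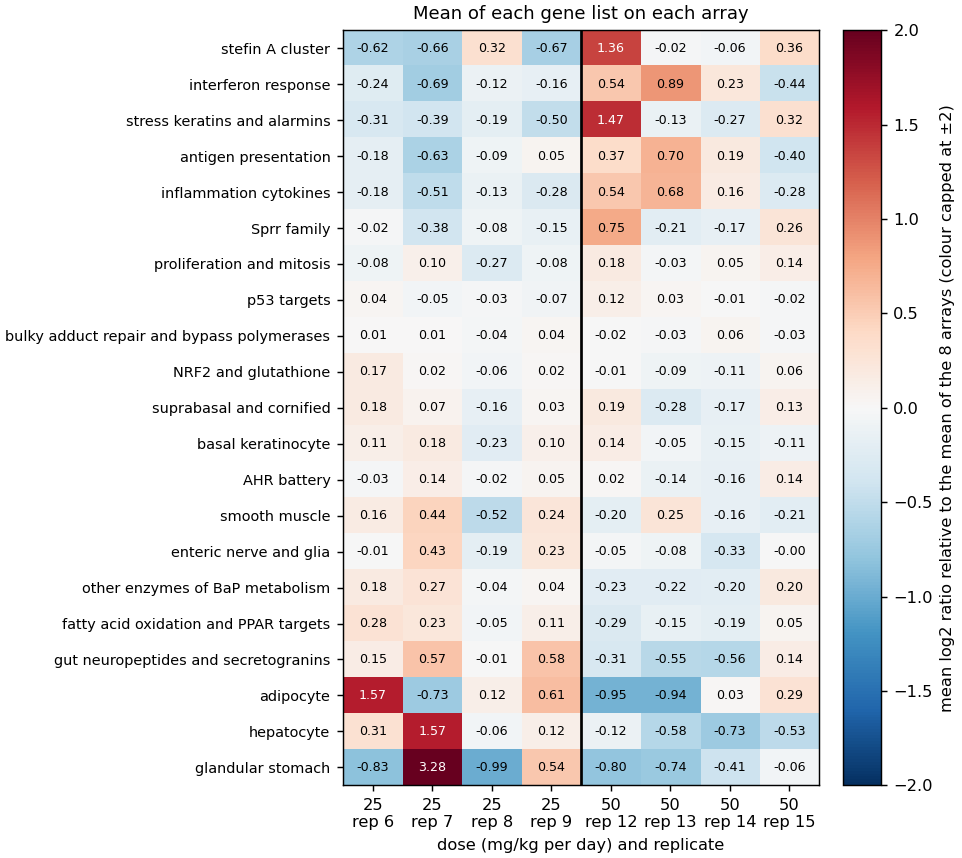
Mean log2 ratio of each gene list (rows) on each of the 8 arrays (columns), relative to the mean of the 8 arrays, with colour capped at 2 log2 units either way. Single arrays stand out: replicate 7 for glandular stomach (3.28), replicate 6 for adipocytes (1.57), and replicate 12 for stress keratins (1.47) and stefins (1.36).

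Within each dose the arrays varied by about as much as in the other groups. The median SD over genes was 0.17 at 25 mg/kg and 0.18 at 50 mg/kg, against 0.20 in controls and 0.18 at 75 mg/kg. Each array's correlation with the mean of the other 3 of its dose was 0.943 to 0.981 over genes. It was lowest for replicate 15 (0.943) and replicate 7 (0.949). Of the 13855 genes with a known symbol, 7 upward and 42 downward differed by at least 1.5-fold without overlap. Over all genes tested, 0.388% upward and 0.856% downward differed by at least 1.5-fold, and 0.917% and 1.06% had no overlap. The 7 and 42 were counted with the main processing only. The 7 were Chil4, Dusp13 (0.70 ± 0.29), Krt16, S100a8, Gm21944 (0.92 ± 0.50), the leukocyte receptor Lilra6 (0.85 ± 0.62) and Bcl2a1d, a BCL2 relative (0.62 ± 0.45). Second probes of Dusp13 and Lilra6 gave 0.28 and 0.49.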

How the data were processed

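Forestomach RNA (Cy5) was measured against Universal Mouse Reference RNA (Cy3) on 2-colour Agilent arrays, 200 ng per array from RNA with an integrity number above 6.6, with 0 arrays dye-swapped. The spot intensity values were deposited as Feature Extraction 10.7.3.1 gave them, per the file headers. The authors' deposited series table holds log2 ratios whose processing is not given in the sources used here; they correlated at 0.998 to 0.999 with loess ratios made without background correction, and served as an alternative.

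From the median signals and local backgrounds, normexp (offset 50) and within-array loess were run in limma 3.58.1 (R 4.3.3). Of 62976 spots, 3671 control spots were left out, as were outlier spots. Spots of a probe were averaged, probes were kept (27577) if 4 or more of the 17 arrays had them well above background in Cy5, and the brightest probe stood for a gene (21384 genes, 13855 with a RefSeq symbol). A single fit over the 4 groups gave 50 minus 25 mg/kg, two-sided, with Benjamini-Hochberg adjustment over all genes at 0.05. The fit imputed nothing, and 21 genes lacked a value on some of the 8 arrays. It was also run on simulated data with independent noise for each probe. Those data held no slide, column or tissue differences, so they cannot show how the fit handles such differences. The number of arrays limits the precision.

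Genes are named by a rule: up to 12 in each direction with the smallest p among those with at least 1.5-fold difference and no overlap, a panel of genes, and the 2 most extreme members of each list in each direction; others are named as chosen after their values were seen, among them Ifih1, Por, Gal, Cpt1a, Plin2 and Ucp3. Some genes that the rule names are not reported here. The genes, the lists and this rule were chosen with earlier results of these data known. Promoter sequences are RefSeq's (GRCm38.p6), for 24 of 29 interferon genes. The alternatives covered normalization, background, channel, filter, probe choice, slide and each array left out.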

Additional observations from a re-analysis of the deposited data

Results flagged for a closer look

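In 16 of 278 groups of 4 arrays examined, a single array stood apart from the other 3 by Dixon's criterion; chance flags about 1 in 20 groups. There were 8 at 25 mg/kg and 8 at 50 mg/kg, with 5 on replicate 7 and 3 on replicate 12.

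Replicate 7 (25 mg/kg) was highest for the liver-type genes Rgn (3.68, against 1.64 to 1.73 on the other 3 arrays), Itih4 (4.12, against 2.16 to 2.48) and Ttr (4.81, against 1.93 to 2.23). It was lowest for Bax (-0.99, against -0.73 to -0.71) and Psmb8 (-2.18, against -1.27 to -1.10). Replicate 8 (25 mg/kg) was highest for Stfa3 (5.20, against 1.86 to 2.37) and for the mean of the stefin A list (0.32, against -0.67 to -0.62). Replicate 9 (25 mg/kg) was lowest for Aen (-0.16, against -0.07 to -0.06).

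At 50 mg/kg, replicate 12 was highest for Defb3 (1.41, against 0.34 to 0.42) and Aen (0.074, against -0.22 to -0.17) and lowest for Synpo2 (6.31, against 6.53 to 6.57). Replicate 13 was lowest for Gstm2 (1.55, against 1.69 to 1.70) and highest for the smooth muscle list mean (0.25, against -0.21 to -0.16). Replicate 15 was lowest for Mdm2 (-0.89, against -0.49 to -0.48) and Hmox1 (1.13, against 1.39 to 1.42), and highest for the mean of the other benzo(a)pyrene enzymes (0.20, against -0.23 to -0.20).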

How the results depend on the processing

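The count of 0 genes past the threshold held in 28 of the 29 alternatives, 17 of which each left out a single array. Cy5 alone gave 1 gene. Without replicate 15 the smallest adjusted limma p was 0.979. The number of genes with an unadjusted p under 0.05 ran from 172 (median centring) to 1128 (no filter, 37105 genes), and was 939 without replicate 8, 867 without replicate 15, and 233 without replicates 7 and 12 together, a setting chosen after seeing the data. The median of the genes lower at 75 mg/kg was -0.86 with median centring, which left 3 such genes, and that of the higher genes 0.54 with Agilent's processed signals. Leaving out single arrays gave 0.19 to 0.39 and -0.35 to -0.13. The median SDs were 0.274 and 0.306 with median centring. Gsr, at -0.19 in the report, ran from -0.32 to 0.013 over single arrays left out (0.013 without replicate 7), and without replicates 7 and 12 together Gsr was 0.022 and Synm 0.034; the cause was not tested. Of 118 named genes, 83 had a difference larger than its standard error. No paired analysis was possible because the groups share no replicate numbers; the slide, shared by both doses, was used as a block instead.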

Other observations

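The reference channel was examined as well, a check added after seeing the data. The transcript XR_031896 was the 1 gene called in Cy5 alone between 50 and 25 mg/kg (-1.31 ± 0.16, limma, adjusted p = 0.00827), and the 1 gene called in Cy3, the reference RNA common to all arrays (-1.46 ± 0.20, limma, adjusted p = 0.0492). Its ratio differed by 0.07. Of the 118 named genes, 5 had an unadjusted limma p under 0.05 in Cy3, where 1.16% of all genes tested did. They were Cartpt (-0.19), Cyp2e1 (-0.45), Ivl (-0.11), Fgg (0.12) and Rgn (0.14). Over the 118, the median absolute Cy3 difference was 0.06, and 2 exceeded 0.5 (Tff1 at -1.43 and Krt16 at 0.52). The unadjusted limma p in Cy3 was 0.257 for Tff1 and 0.0793 for Krt16, so neither was under 0.05. For Krt16 the mean reference signal was higher at 50 mg/kg, and so was the ratio. Dose and slide column cannot be told apart.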
